A study of Mus musculus with 9 samples.

Results

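Toll-like receptors are membrane proteins of innate immunity that bind parts of microbes and products of damaged cells. The 10 mouse genes Tlr1, Tlr2, Tlr3, Tlr4, Tlr5, Tlr6, Tlr7, Tlr8, Tlr9 and Tlr13 were taken by name from a deposited table of 35112 genes, and each had 1 row. Their transcripts were measured by RNA sequencing of brain from wild type C57BL/6 mice, 3 animals in each of 3 groups. The sham mice were the controls, the ICH mice had an intracerebral haemorrhage (bleeding into the brain tissue), and the ICH+P7C3-A20 mice had the haemorrhage and were treated with P7C3-A20, a neuroprotective aminopropyl carbazole. All groups were sampled at 72 hours. The sources used here do not give dose, route, brain region, age, sex or how the haemorrhage was made, nor whether sham and ICH mice received a vehicle. The whole tissue was sequenced, so a change in the number of cells that carry a receptor and a change in its RNA per cell cannot be told apart.

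Each receptor has an outer leucine-rich horseshoe that binds the ligand and an inner TIR domain that recruits adaptor proteins. Tlr1, Tlr2, Tlr4, Tlr5 and Tlr6 sit at the cell surface. Tlr2 pairs with Tlr1 or Tlr6 to bind lipopeptides, Tlr4 binds lipopolysaccharide together with Ly96 and Cd14, and Tlr5 binds flagellin. Tlr3, Tlr7, Tlr8, Tlr9 and Tlr13 act in endosomes, where they bind nucleic acids: double-stranded RNA for Tlr3, single-stranded RNA for Tlr7 and Tlr8, unmethylated CpG DNA for Tlr9 and bacterial ribosomal RNA for Tlr13. Every receptor except Tlr3 signals through the adaptor Myd88, Tlr3 signals through Ticam1 (also called TRIF), and Tlr4 uses both. In brain, microglia are the main cells that carry these receptors, and incoming monocytes, macrophages and neutrophils carry many of them too.

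In the deposited table Tlr2 lies on chromosome 3, 83836272 to 83841767, minus strand, Tlr1 on chromosome 5, 64924679 to 64933561, minus strand, and Tlr6 on chromosome 5, 64952031 to 64960048, minus strand. Tlr4 lies on chromosome 4, 66827584 to 66930284, plus strand, and Tlr5 on chromosome 1, 182954788 to 182976044, plus strand. Of the endosomal receptors, Tlr3 lies on chromosome 8, 45395665 to 45411080, minus strand, and Tlr9 on chromosome 9, 106222598 to 106226883, plus strand. Tlr7 (chromosome X, 167304929 to 167330558, minus strand), Tlr8 (chromosome X, 167242696 to 167264329, minus strand) and Tlr13 (chromosome X, 106143204 to 106160493, plus strand) share the X chromosome. All but Tlr1 and Tlr6 have the identical span in GENCODE M21 (GRCm38). Each is a protein-coding gene, and its values are for the gene as a whole. An antisense gene, Gm45542, shares 381 exonic bases with Tlr3 and held 47 counts over all 9 libraries.

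RefSeq promoter sequences (GRCm38.p6, from 250 bases before to 50 bases after the start of transcription) were matched for 8 of the 10 receptors, all but Tlr4 and Tlr7. They were searched on both strands for 4 letter patterns bound by factors that act downstream of these receptors or in myeloid cells: GGGA, any base, TT, any base and CC for NF-kappaB; GAAA, any 2 bases and GAAA for interferon regulatory factors; TGANTCA for AP-1; and GAGGAAG for the ETS factor PU.1. No overlap between different patterns was merged. Among all 32851 promoters of the same length, 1.2% held the NF-kappaB pattern, 3.44% the interferon regulatory factor pattern, 7.81% the AP-1 pattern and 13.6% the PU.1 pattern. The promoters of Tlr2 and Tlr13 are shown because these receptors had the largest ICH levels, and that of Tlr3 because its log2 change was the smallest. Each is 5′ to 3′ along its gene, with a pattern in capitals. They are Tlr2 at chr3:83841559-83841858 (minus strand), Tlr3 at chr8:45410331-45410630 (minus strand) and Tlr13 at chrX:106143025-106143324 (plus strand).
Tlr2: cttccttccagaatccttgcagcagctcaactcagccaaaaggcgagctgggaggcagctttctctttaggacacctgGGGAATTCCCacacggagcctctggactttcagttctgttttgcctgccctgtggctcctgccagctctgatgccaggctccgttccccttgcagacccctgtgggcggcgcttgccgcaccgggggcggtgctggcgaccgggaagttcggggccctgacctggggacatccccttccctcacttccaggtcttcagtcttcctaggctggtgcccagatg
Tlr3: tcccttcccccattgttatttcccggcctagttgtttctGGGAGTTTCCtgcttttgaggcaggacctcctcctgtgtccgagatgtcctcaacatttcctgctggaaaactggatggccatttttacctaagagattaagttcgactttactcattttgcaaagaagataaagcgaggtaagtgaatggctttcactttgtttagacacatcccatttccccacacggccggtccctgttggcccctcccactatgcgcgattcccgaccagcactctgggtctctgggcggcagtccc
Tlr13: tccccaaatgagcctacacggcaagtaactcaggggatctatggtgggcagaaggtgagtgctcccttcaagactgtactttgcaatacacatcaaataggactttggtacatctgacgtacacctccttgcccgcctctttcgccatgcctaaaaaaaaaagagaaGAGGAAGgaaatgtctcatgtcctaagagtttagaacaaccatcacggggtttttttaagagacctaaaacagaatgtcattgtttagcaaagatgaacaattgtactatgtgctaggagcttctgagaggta
The NF-kappaB pattern began at -172 relative to the start site in Tlr2, where it is a palindrome and matched both strands, and at -211 in Tlr3. The PU.1 pattern began at -83 in Tlr13. It also occurred at -23 in a Tlr1 promoter (chr5:64933509-64933808) and at -112 and 11 in Tlr9, and the AP-1 pattern occurred at -58 in Tlr9. A Tlr6 promoter (chr5:64959117-64959416) held 2 overlapping interferon regulatory factor matches, at -116 and -110. The other promoters of Tlr1 (chr5:64932650-64932949) and Tlr6 (chr5:64959999-64960298) and those of Tlr5 and Tlr8 held none of the 4 patterns in this window. A match is a description of letters, and binding was not measured.

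Tlr1 and Tlr6 are neighbouring copies on chromosome 5, and part of their sequence is identical. Exact runs of at least 50 bases shared by their GENCODE M21 transcripts covered 24.7% of the Tlr1 transcript and 20.3% of the Tlr6 transcript, and no other pair of the 10 receptors shared such a run. The longest run is 229 bases, all coding in both genes, at chr5:64925537-64925765 in Tlr1 and chr5:64953828-64954056 in Tlr6 (GRCm38, minus strand). It is printed 5′ to 3′, and a read that lies wholly within such a run is the same for both genes. How many reads did so was not measured.
Tlr1 and Tlr6: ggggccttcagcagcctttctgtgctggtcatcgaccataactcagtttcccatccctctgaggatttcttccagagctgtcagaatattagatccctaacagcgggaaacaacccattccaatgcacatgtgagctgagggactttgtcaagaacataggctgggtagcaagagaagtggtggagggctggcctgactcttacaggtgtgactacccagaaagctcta
The sources used here do not say how the deposited counts divided such reads, so the values of Tlr1 and Tlr6 are uncertain.

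The libraries held 51537047 to 63324728 estimated counts each, and a single library's floor of 3 counts equals 0.0474 to 0.0582 CPM, counts scaled to library size. Levels are given in FPKM, fragment counts scaled to transcript length and library depth, which allows genes to be compared per length. Across genes, log2 values of libraries of the same group had Pearson correlations of 0.981 to 0.990, and those of different groups 0.951 to 0.983. Markers of neurons, astrocytes and oligodendrocytes were present in every library, as the label brain implies. The library ICH+P7C3-A20 1 differed from the rest of its group: 6 oligodendrocyte markers summed to 581 FPKM against 1221 and 1419 in the other two, and 9 microglia markers to 163 FPKM against 270 and 275. Sham 3 held 128 FPKM of microglia markers against 92.3 and 89.5 in sham 1 and 2. Counts are therefore also given without these libraries.

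Tlr3 was the most abundant receptor transcript in sham brain and Tlr2 in ICH brain. In sham, Tlr3 (2.31 ± 0.165 FPKM, mean ± SD, n = 3) was followed by Tlr7 (0.755 ± 0.314 FPKM), Tlr13 (0.406 ± 0.102 FPKM) and Tlr9 (0.378 ± 0.0345 FPKM). Below them came Tlr2, Tlr1, Tlr4, Tlr6 and Tlr5, from 0.294 down to 0.0613 FPKM, and Tlr8 was last at 0.0214 ± 0.0257 FPKM. Tlr3 did not overlap with any other receptor in sham, while Tlr7 at 0.486 to 1.10 FPKM overlapped in range with Tlr13 at 0.303 to 0.508 FPKM. In ICH the order by mean was Tlr2 (7.23 ± 0.789 FPKM), Tlr13 (5.82 ± 0.711 FPKM), Tlr7 (5.79 ± 0.543 FPKM) and Tlr3 (4.92 ± 0.250 FPKM), then Tlr1, Tlr9, Tlr4, Tlr6, Tlr8 and Tlr5. The lowest Tlr2 library (6.32 FPKM) lay above the highest Tlr13 library (6.27 FPKM) but below the highest Tlr7 library (6.35 FPKM), and Tlr13 and Tlr7 overlapped. In ICH+P7C3-A20 the order was Tlr3 (3.42 ± 0.593 FPKM), Tlr7 (2.53 ± 0.713 FPKM), Tlr2 (2.35 ± 1.02 FPKM) and Tlr13 (2.22 ± 0.514 FPKM), each overlapping in range with the next. The sum of the 10 receptors was 4.29 to 5.22 FPKM in sham, 26.7 to 31.3 FPKM in ICH and 9.70 to 15.8 FPKM in ICH+P7C3-A20.

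**Figure D1:**
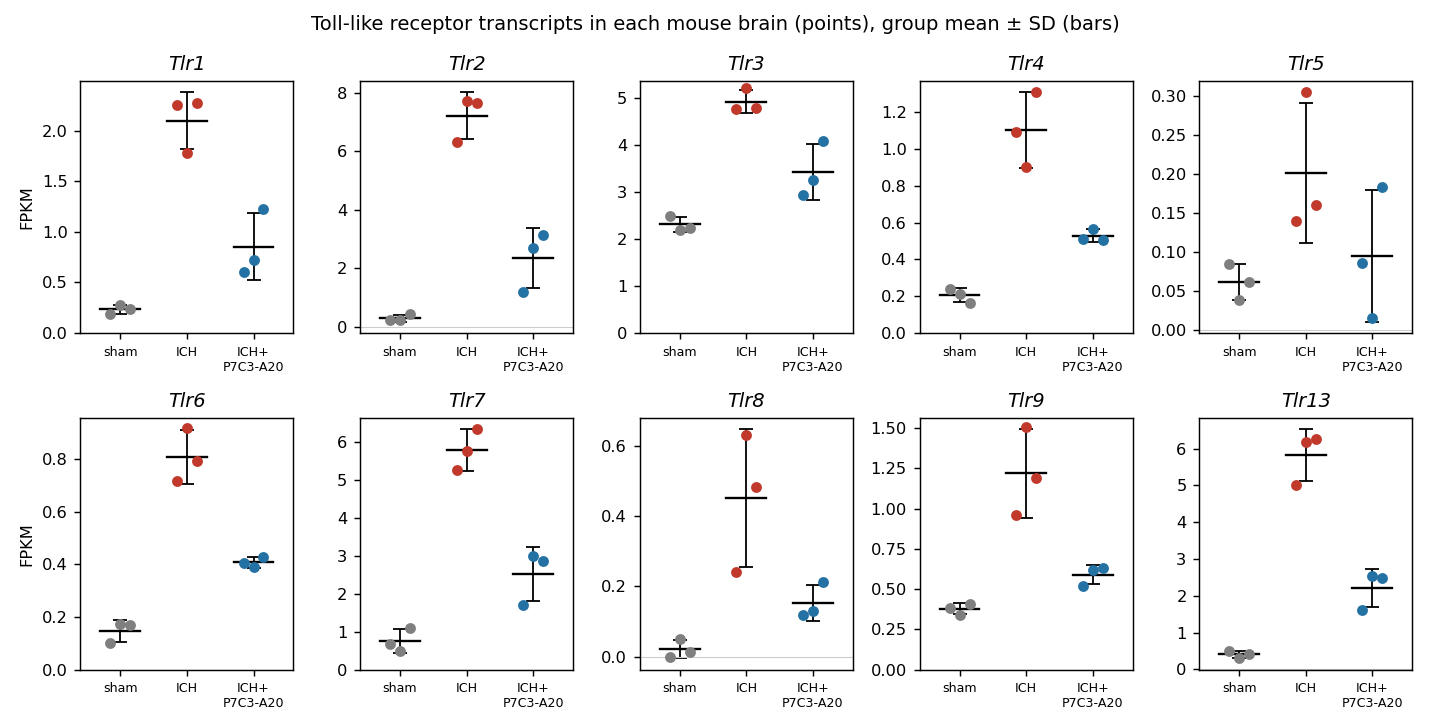
FPKM of each Toll-like receptor (y axis, a separate linear scale per panel) in sham, ICH and ICH+P7C3-A20; points are single mice, the long bar is the group mean and the error bar 1 SD (n = 3). In all panels but that of Tlr5 the 3 groups are fully separated, with sham lowest and ICH highest.

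The comparison of ICH with sham asked what the haemorrhage did to these transcripts. Of the 10 receptors, 9 rose, and Tlr5 did not pass the test (edgeR adjusted p under 0.05 over 21900 genes). Of all tested genes, 15.6% rose and 26.0% changed, with 3418 higher and 2283 lower. Limma on log2(FPKM + 1) called 3064 higher and 1112 lower, and with those values quantile-normalized 2910 higher and 3272 lower. The median log2 change of the receptors was 2.66, against 0.002 over all tested genes. In FPKM the ICH libraries lay above all sham libraries for 10 of 10 receptors, a separation seen in 23.0% of all genes (14.3% were separated with ICH lower). The receptors were chosen with earlier results of these data known, so the values over all genes are background and not a test. The 9 calls held in each of the 6 fits that left out 1 sham or ICH library.

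Among the lipopeptide receptors, Tlr2 measured 0.240, 0.217 and 0.427 FPKM in sham 1, 2 and 3 and 6.32, 7.72 and 7.65 FPKM in ICH 1, 2 and 3. Every ICH library was above 6 FPKM and every sham library below 0.5 FPKM, a 23.9-fold rise (log2 change 4.58 ± 0.36, edgeR adjusted p = 1.36e-05). Tlr1, a partner of Tlr2, measured 0.190, 0.273 and 0.236 FPKM in sham and 2.26, 1.78 and 2.27 FPKM in ICH. The ranges were far apart, an 8.54-fold rise (log2 change 3.09 ± 0.33, edgeR adjusted p = 7.51e-05). Tlr6, the other partner, measured 0.0996, 0.173 and 0.168 FPKM in sham and 0.715, 0.915 and 0.791 FPKM in ICH. It rose 5.30-fold (log2 change 2.41 ± 0.30, edgeR adjusted p = 2.42e-04), and the lowest ICH library was above 0.7 FPKM. The lipopolysaccharide receptor Tlr4 measured 0.238, 0.213 and 0.165 FPKM in sham and 1.09, 0.899 and 1.31 FPKM in ICH. All sham libraries were low and close together, and Tlr4 rose 5.06-fold (log2 change 2.34 ± 0.24, edgeR adjusted p = 7.36e-05). The flagellin receptor Tlr5 was faint in all groups, with 0.0845, 0.0387 and 0.0606 FPKM in sham and 0.139, 0.304 and 0.160 FPKM in ICH, or 29, 13 and 22 and 45, 100 and 51 counts. ICH 2 stood out from the other ICH libraries. The log2 change of Tlr5 was 1.67 ± 0.75 (edgeR adjusted p = 0.135, 95% interval 0.0049 to 3.33), and a fit of the sham and ICH libraries alone gave an edgeR adjusted p of 0.0459.

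Among the endosomal receptors, Tlr13, the receptor for bacterial ribosomal RNA, measured 0.508, 0.303 and 0.408 FPKM in sham and 5.00, 6.18 and 6.27 FPKM in ICH. The sham libraries were all near or below 0.5 FPKM, and the rise was 13.7-fold (log2 change 3.78 ± 0.23, edgeR adjusted p = 6.31e-06). Tlr7, a single-stranded RNA receptor, measured 0.678, 0.486 and 1.10 FPKM in sham and 5.26, 5.77 and 6.35 FPKM in ICH. Sham 3 was the highest sham library but lay well below every ICH library, and Tlr7 rose 7.5-fold (log2 change 2.91 ± 0.26, edgeR adjusted p = 2.75e-05). Its neighbour on the X chromosome, Tlr8, measured 0, 0.0499 and 0.0143 FPKM in sham and 0.242, 0.629 and 0.483 FPKM in ICH, which rest on 0, 13 and 4 and 59, 153 and 113 counts. Tlr8 was undetected in sham 1, where the limit is 3 counts, and it rose 19.1-fold (log2 change 4.25 ± 0.87, edgeR adjusted p = 0.00474). Tlr8 passed the count filter only through the groups with haemorrhage, a limit on its call in ICH. Most sham counts (13) lay in sham 2, and without that library the log2 change of Tlr8 was 5.80. The CpG DNA receptor Tlr9 measured 0.381, 0.342 and 0.411 FPKM in sham and 0.959, 1.51 and 1.19 FPKM in ICH. The ICH libraries were more spread than the sham libraries, and Tlr9 rose 3.12-fold (log2 change 1.64 ± 0.26, edgeR adjusted p = 0.00105). Tlr3, the double-stranded RNA receptor, measured 2.50, 2.20 and 2.23 FPKM in sham and 4.75, 5.20 and 4.79 FPKM in ICH. Libraries within each group were close, and Tlr3 rose 2.06-fold (log2 change 1.04 ± 0.17, edgeR adjusted p = 0.00147), the smallest log2 change of the 10.

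The comparison of ICH+P7C3-A20 with ICH asked how treatment altered the injured brain. Of the 10 receptors, 6 fell (Tlr1, Tlr2, Tlr4, Tlr7, Tlr9 and Tlr13), and Tlr3, Tlr5, Tlr6 and Tlr8 did not pass the test. Of all tested genes, 6.05% fell and 8.74% changed. The median log2 change of the receptors was -1.07, against -0.007 over all tested genes. In FPKM the treated libraries lay below all ICH libraries for 9 of 10 receptors, and 16.4% of all genes were separated in that way. The same 3 ICH libraries entered the comparison with sham. Leaving out 1 library at a time left 1 to 5 receptors called, and Tlr13 alone was called in each of these 6 fits. The count was 2 without ICH 1, 1 without ICH 2, 2 without ICH 3, 2 without ICH+P7C3-A20 1, 3 without ICH+P7C3-A20 2 and 5 without ICH+P7C3-A20 3. Without sham 3 and ICH+P7C3-A20 1 together it was 4.

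Tlr13 measured 1.62, 2.54 and 2.48 FPKM in ICH+P7C3-A20 1, 2 and 3. All were below the lowest ICH library, 2.54-fold lower on average (log2 change -1.34 ± 0.21, edgeR adjusted p = 0.00731), and the largest edgeR adjusted p with 1 library left out was 0.0386. Tlr2 measured 1.19, 2.71 and 3.13 FPKM, with ICH+P7C3-A20 1 lowest. It was 2.99-fold lower than in ICH (log2 change -1.58 ± 0.31, edgeR adjusted p = 0.0140), a call that was lost without ICH 2 (edgeR adjusted p = 0.0622). Tlr7 measured 1.71, 3.00 and 2.87 FPKM, again lowest in ICH+P7C3-A20 1. It was 2.22-fold lower (log2 change -1.15 ± 0.24, edgeR adjusted p = 0.0184), and edgeR adjusted p was 0.0526 without ICH 1, 0.0741 without ICH 2, 0.0643 without ICH 3 and 0.0614 without ICH+P7C3-A20 1. Tlr1 measured 0.605, 0.725 and 1.23 FPKM, with ICH+P7C3-A20 3 highest and still below ICH. It was 2.33-fold lower (log2 change -1.22 ± 0.30, edgeR adjusted p = 0.0334), and the call held only without ICH+P7C3-A20 3, with edgeR adjusted p of 0.0769 to 0.123 in the other 5 fits. Tlr4 measured 0.512, 0.567 and 0.503 FPKM and was 1.99-fold lower (log2 change -0.99 ± 0.23, edgeR adjusted p = 0.0277). The treated libraries of Tlr4 lay close together, and the call was lost in all 6 fits (edgeR adjusted p 0.0623 to 0.113). Tlr9 measured 0.523, 0.621 and 0.630 FPKM and was 1.99-fold lower (log2 change -0.99 ± 0.25, edgeR adjusted p = 0.0376). Its call too was lost in all 6 fits (edgeR adjusted p 0.0589 to 0.153) and with the replicate number as a block (edgeR adjusted p = 0.0671).

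The 4 receptors that did not pass the test all had negative estimates. Tlr6 measured 0.406, 0.388 and 0.429 FPKM, all below ICH, with a log2 change of -0.91 ± 0.29 (edgeR adjusted p = 0.0750, 95% interval -1.55 to -0.28). DESeq2 gave Tlr6 an adjusted p of 0.0176 and limma on log2(FPKM + 1) an adjusted p of 0.0257. Tlr3 measured 2.93, 3.26 and 4.08 FPKM, also all below ICH, with a log2 change of -0.46 ± 0.17 (edgeR adjusted p = 0.124, 95% interval -0.84 to -0.08), and its edgeR adjusted p was 0.0427 without ICH+P7C3-A20 3. Tlr8 measured 0.119, 0.129 and 0.212 FPKM (27, 32 and 52 counts), with a log2 change of -1.48 ± 0.74 (edgeR adjusted p = 0.254, 95% interval -3.11 to 0.15). Tlr5 measured 0.0858, 0.0152 and 0.183 FPKM (27, 6 and 59 counts), and these overlapped with ICH. Its log2 change was -0.97 ± 0.73 (edgeR adjusted p = 0.476, 95% interval -2.59 to 0.65), and it was -1.85 without ICH+P7C3-A20 3.

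Compared with sham, 6 of 10 receptors were higher in ICH+P7C3-A20, against 4.58% of all genes higher and 5.32% changed. These were Tlr2 (log2 change 3.00 ± 0.34, edgeR adjusted p = 8.72e-04), Tlr13 (log2 change 2.43 ± 0.22, edgeR adjusted p = 3.90e-04), Tlr1 (log2 change 1.88 ± 0.31, edgeR adjusted p = 0.00666), Tlr7 (log2 change 1.76 ± 0.25, edgeR adjusted p = 0.00279), Tlr6 (log2 change 1.49 ± 0.30, edgeR adjusted p = 0.0162) and Tlr4 (log2 change 1.35 ± 0.24, edgeR adjusted p = 0.00906). Tlr8 (log2 change 2.77 ± 0.85, edgeR adjusted p = 0.0982), Tlr3 (log2 change 0.58 ± 0.17, edgeR adjusted p = 0.0885), Tlr9 (log2 change 0.65 ± 0.26, edgeR adjusted p = 0.205) and Tlr5 (log2 change 0.70 ± 0.75, edgeR adjusted p = 0.713) did not pass. The median over the 10 receptors was 1.63 on the log2 scale, against 0.027 over all genes. In FPKM 9 of 10 receptors were higher in every treated library than in every sham library, as were 10.7% of all genes, while 5.39% were lower in every treated library. Tlr6 was lost without sham 1 (edgeR adjusted p = 0.0629) and without ICH+P7C3-A20 3 (0.0687), and Tlr8 was gained without sham 2 (log2 change 4.32, edgeR adjusted p = 0.0328). The log2 change of Tlr5 was -0.18 without ICH+P7C3-A20 3. A fit of these 2 groups alone called 3 receptors, Tlr2, Tlr7 and Tlr13. For 9 of the 10 receptors the 3 groups were fully separated in FPKM in the order sham, ICH+P7C3-A20, ICH, and 5.72% of all genes had that order.

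**Figure D2:**
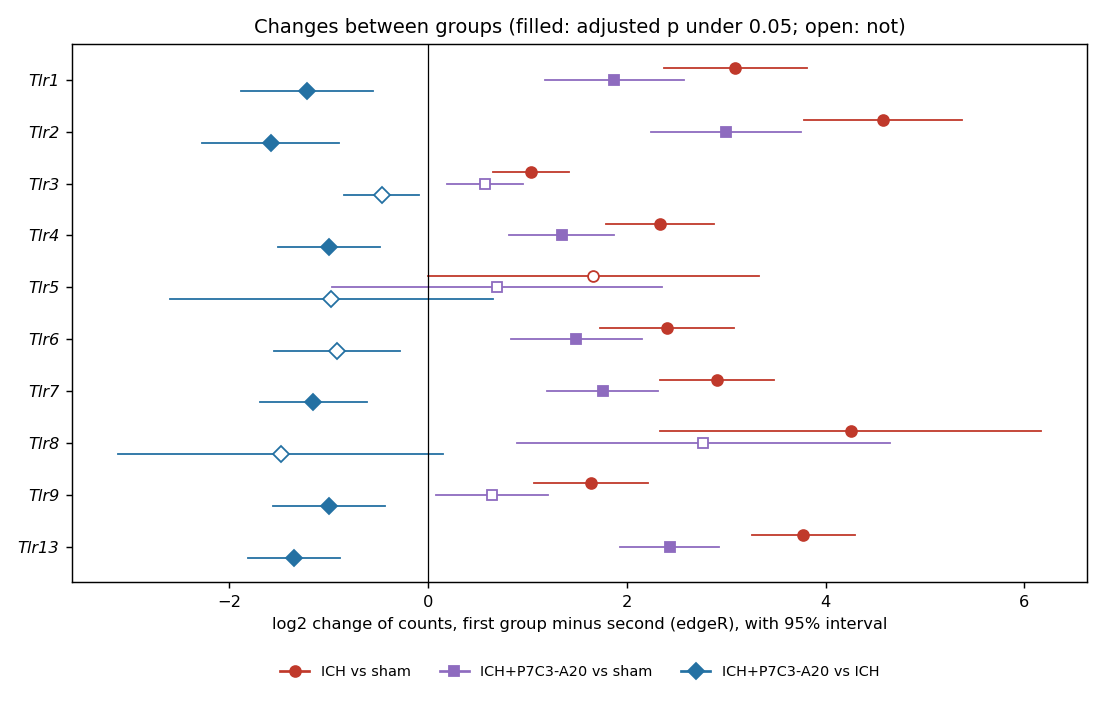
Log2 change of each receptor (x axis) in the 3 comparisons, from edgeR on the estimated counts of 9 libraries; symbols are estimates, lines 95% intervals, filled symbols have an adjusted p under 0.05. All estimates against sham lie right of 0 and all estimates of ICH+P7C3-A20 against ICH lie left of 0, with Tlr2 at 4.58 and Tlr3 at 1.04 for ICH against sham.

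The make-up of the receptor transcripts differed between groups, with Tlr3 at rank 1 by mean in sham, rank 4 in ICH and rank 1 in ICH+P7C3-A20. As a share of the summed receptor FPKM of a library, Tlr3 was 48.2% ± 4.81 (SD, n = 3) in sham, 16.6% ± 1.23 in ICH and 26.5% ± 3.47 in ICH+P7C3-A20. Tlr2 was 6.04% ± 1.86 in sham, 24.4% ± 0.677 in ICH and 17.2% ± 4.26 in ICH+P7C3-A20. Tlr13 was 8.40% ± 1.71 in sham, 19.6% ± 0.767 in ICH and 16.9% ± 1.25 in ICH+P7C3-A20. For these 3 receptors the groups did not overlap in either comparison, with Tlr2 and Tlr13 taking more and Tlr3 less of the total in ICH than in sham, and the opposite in ICH+P7C3-A20 against ICH. The share of Tlr9 was 7.87% ± 0.107 in sham, 4.09% ± 0.687 in ICH and 4.61% ± 0.709 in ICH+P7C3-A20, separated between sham and ICH and overlapping between ICH and ICH+P7C3-A20. Tlr7 kept overlapping shares, 15.4% ± 5.07, 19.6% ± 0.815 and 19.1% ± 2.10 in sham, ICH and ICH+P7C3-A20. With 3 animals against 3 the exact two-sided permutation test cannot go below p = 0.1. That value was reached by Tlr2, Tlr3, Tlr9 and Tlr13 for ICH against sham (0.25 after Benjamini-Hochberg adjustment over 10 receptors) and by Tlr2, Tlr3 and Tlr13 for ICH+P7C3-A20 against ICH (0.333 after adjustment).

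**Figure D3:**
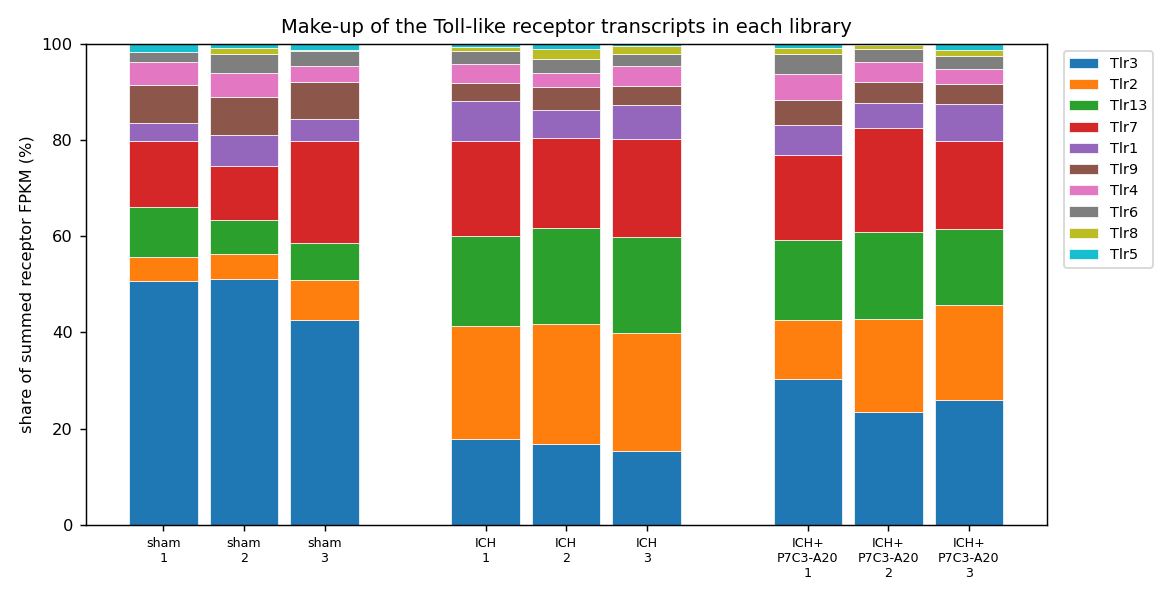
Share of each receptor in the summed FPKM of the 10 receptors (y axis, percent) for each of the 9 libraries. Tlr3, at the base, takes 42.7% to 51.2% in sham, 15.3% to 17.8% in ICH and 23.4% to 30.2% in ICH+P7C3-A20.

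Around the receptors, 97 tested genes of their pathway (of 103 listed) were followed in lists by role. In ICH 64 of them rose and 3 fell, with a median log2 change of 1.39. Over all tested genes 15.6% rose and 10.4% fell in this comparison. In ICH+P7C3-A20 against ICH 38 fell and 1 rose, against 6.05% and 2.69% of all tested genes. These shares are also the background for each list and marker count that follows. The lists were chosen with earlier results of these data known, so setting them against these shares is not a test. The pathway median was -0.75. Of the 67 calls in ICH 56 held in every fit that left out 1 library, and of the 39 calls against ICH 19 did. Those 19 were Ly86, Slc15a3, Ctsb, Ctsl, Lgmn, Rnaset2b, Pld4, Dnase2a, Pik3ap1, Ikbke, Irf5, Irf7, Irf8, Nfkb1, Atf3, Cxcl10, Ifit1, Tnc and Fn1. Of the 2 other Toll genes in the table, Tlr12 had log2 changes of 0.73 and -0.93 in these comparisons (edgeR adjusted p 0.217 and 0.189). Tlr11 held 4, 24 and 8 counts in ICH and 0 in the other libraries, too few to be tested.

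Of the co-receptors and accessory proteins, 5 of 6 rose in ICH (median log2 change 3.06) and 4 of 6 fell in ICH+P7C3-A20 against ICH (median -1.28). Cd36, a scavenger receptor that assists Tlr2 with Tlr6, measured 0.183, 0.197 and 0.121 FPKM in sham, 4.11, 4.47 and 4.16 FPKM in ICH and 0.640, 1.82 and 1.40 FPKM in ICH+P7C3-A20. It rose by 4.59 ± 0.36 on the log2 scale in ICH (edgeR adjusted p = 1.43e-05) and changed by -1.70 ± 0.31 with P7C3-A20 (edgeR adjusted p = 0.0114). Cd14, which hands lipopolysaccharide to Tlr4, measured 1.12, 0.721 and 1.23 FPKM in sham, 6.66, 7.06 and 6.77 FPKM in ICH and 1.87, 3.65 and 3.33 FPKM in ICH+P7C3-A20. Its log2 changes were 2.69 and -1.17 (edgeR adjusted p 4.51e-05 and 0.0179). The Tlr4-related regulator Cd180 and its partner Ly86 had log2 changes of 4.17 and 3.42 in ICH and -1.44 and -1.40 with P7C3-A20. Without ICH 2 the edgeR adjusted p against ICH was 0.0519 for Cd36 and 0.0531 for Cd180, and for Cd14 it was 0.0618 without ICH 1, 0.0754 without ICH 2 and 0.0510 without ICH 3.

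The genes that carry receptors to the endosome and process them there included 11 of 15 that rose in ICH (median log2 change 2.16) and 9 of 15 that fell with P7C3-A20 (median -1.07). Unc93b1, the chaperone that escorts the nucleic acid receptors to endosomes, measured 3.63, 3.87 and 4.48 FPKM in sham, 18.8, 21.5 and 18.9 FPKM in ICH and 5.93, 9.88 and 11.5 FPKM in ICH+P7C3-A20. Its log2 changes were 2.26 and -1.07 (edgeR adjusted p 3.38e-05 and 0.0120), the latter lost without ICH 2 (0.0566). Slc15a3, an endosomal peptide and histidine transporter, measured 0.389, 0.393 and 0.405 FPKM in sham, 5.31, 6.18 and 6.06 FPKM in ICH and 0.843, 1.86 and 1.98 FPKM in ICH+P7C3-A20 (log2 changes 3.83 and -1.86). The lysosomal proteases that trim endosomal receptors were also called in both comparisons. Their log2 changes in ICH were 1.84 for Ctsb, 2.16 for Ctsl, 2.49 for Ctss and 2.51 for Lgmn, and with P7C3-A20 -1.10 for Ctsb, -1.03 for Ctsl, -1.26 for Ctss and -1.24 for Lgmn, where Ctss was lost without ICH 2 (edgeR adjusted p = 0.0519). Enzymes that cut the nucleic acid ligands had log2 changes in ICH of 1.73 for Rnaset2b, 2.40 for Pld4 and 2.30 for Dnase2a, and with P7C3-A20 of -1.23 for Rnaset2b, -1.16 for Pld4 and -1.12 for Dnase2a. The edgeR adjusted p of these genes was at most 1.74e-04 in ICH and 0.0114 with P7C3-A20.

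Of the 6 TIR domain and bridging adaptors, 5 rose in ICH (median log2 change 1.63) and 3 fell with P7C3-A20 (median -0.84). Myd88, the adaptor of all receptors but Tlr3, measured 1.26, 1.40 and 1.82 FPKM in sham, 5.55, 5.52 and 6.44 FPKM in ICH and 1.99, 3.11 and 3.32 FPKM in ICH+P7C3-A20. It had log2 changes of 1.92 and -1.0 (edgeR adjusted p 5.92e-05 and 0.0123), the second lost without ICH 2 (0.0531). Ticam2, which links Tlr4 to Ticam1, and Pik3ap1, which links the receptors to PI3 kinase, had log2 changes of 3.52 and 3.29 in ICH and -1.44 and -1.40 with P7C3-A20 (edgeR adjusted p up to 6.69e-05 and 0.0251). Ticam2 was lost in 5 of the 6 fits without 1 library of the second comparison (edgeR adjusted p 0.0570 to 0.0845). The Tlr3 adaptor Ticam1 was called in ICH (log2 change 1.34 ± 0.22, edgeR adjusted p = 0.00145) and not with P7C3-A20 (log2 change -0.68 ± 0.22, edgeR adjusted p = 0.0813).

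Of 19 kinases and ubiquitin ligases 7 rose and 2 fell in ICH, with a median log2 change of 0.10, close to 0. The risen members with the smallest p were Btk, a kinase of myeloid and B cells (log2 change 3.57 ± 0.35, edgeR adjusted p = 4.79e-05), Irak4, the first kinase recruited by Myd88 (log2 change 2.18 ± 0.23, edgeR adjusted p = 7.98e-05), and Ripk1, which relays Ticam1 signals (log2 change 1.61 ± 0.16, edgeR adjusted p = 4.86e-05). The fallen members were Tab3 (log2 change -0.69 ± 0.11, edgeR adjusted p = 0.00132), a partner of the kinase Map3k7, and Peli1 (log2 change -0.47 ± 0.10, edgeR adjusted p = 0.00464), a ubiquitin ligase. Tab3 measured 3.42, 2.82 and 3.36 FPKM in sham, 2.05, 1.92 and 2.19 FPKM in ICH and 2.57, 2.90 and 2.40 FPKM in ICH+P7C3-A20. With P7C3-A20 5 fell and 1 rose (median -0.05): Ikbke (-1.45), Map3k8 (-1.27), Btk (-1.17), Irak4 (-0.91) and Ripk1 (-0.78) fell and Tab3 (0.41) rose, with edgeR adjusted p up to 0.0494. Of these 6 calls that of Ikbke alone held in every fit without 1 library. The edgeR adjusted p rose to at most 0.165 for Tab3, 0.157 for Btk, 0.131 for Irak4, 0.120 for Map3k8 and 0.0641 for Ripk1.

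Of the 10 transcription factors 9 rose in ICH (median log2 change 1.28) and 6 fell with P7C3-A20 (median -0.90). The 3 with the smallest p in ICH were Irf8, a myeloid lineage factor (log2 change 2.61 ± 0.16, edgeR adjusted p = 6.31e-06), Irf5 (log2 change 2.66 ± 0.26, edgeR adjusted p = 5.33e-05) and the NF-kappaB subunit Nfkb2 (log2 change 2.0 ± 0.20, edgeR adjusted p = 4.88e-05). With P7C3-A20 the 6 log2 changes were -2.29 for Irf7, -1.44 for Irf5, -1.34 for Irf8, -1.14 for Irf1, -1.04 for Nfkb2 and -0.75 for Nfkb1 (edgeR adjusted p up to 0.0147). Irf7, which drives type I interferon genes after Tlr7 and Tlr9, measured 2.85, 2.96 and 4.35 FPKM in sham, 4.90, 11.4 and 10.9 FPKM in ICH and 1.02, 2.21 and 2.15 FPKM in ICH+P7C3-A20. ICH 1 was the lowest ICH library, and every treated library lay below every sham library, although ICH+P7C3-A20 against sham did not pass (log2 change -0.91 ± 0.33, edgeR adjusted p = 0.172). Irf1 was lost without ICH 2 (edgeR adjusted p = 0.0688) and ICH 3 (0.0567), and Nfkb2 without ICH 2 (0.0506).

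Of 13 negative regulators, 6 rose and 1 fell in ICH (median log2 change 0.81), and 2 fell with P7C3-A20 (median -0.61). Atf3, a repressor induced by Toll-like receptor signals, changed by 3.91 ± 0.38 in ICH and -2.05 ± 0.35 with P7C3-A20 (edgeR adjusted p 4.91e-05 and 0.00868). Nfkbia, which holds NF-kappaB in the cytoplasm, changed by 1.31 ± 0.14 and -0.62 ± 0.14 (edgeR adjusted p 8.13e-05 and 0.0228), the second lost in 5 of the 6 fits without 1 library (edgeR adjusted p 0.0508 to 0.104). The ribonuclease gene Zc3h12a rose in ICH (log2 change 2.66 ± 0.37, edgeR adjusted p = 5.13e-04). Cyld, a deubiquitinase, fell in ICH (log2 change -0.67 ± 0.17, edgeR adjusted p = 0.0144), a call lost without ICH 1 (0.0541) and ICH 2 (0.0612).

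Genes that Toll-like receptor signals are known to induce had the largest list median in ICH (log2 change 5.01). Of 18 tested (of 21 listed), 15 were higher in ICH and 7 lower with P7C3-A20 (median -1.71). With the 2 genes at 0 in every sham library (Cxcl2 and Tnf) at their lower bound, the ICH median was 4.75. These 2 genes passed the count filter only through the groups with haemorrhage. The cytokine gene Tnf was at 0 counts in every sham library and held 175, 129 and 133 counts in ICH, at least 156-fold higher in CPM if the 3 sham libraries together held 3 counts (edgeR adjusted p = 2.49e-05). It held 17, 34 and 31 counts in ICH+P7C3-A20, all below ICH (log2 change -2.37 ± 0.38, edgeR adjusted p = 0.0105). The chemokine gene Cxcl10 measured 0.366, 0.133 and 0.210 FPKM in sham, 7.03, 10.9 and 11.7 FPKM in ICH and 1.93, 1.6 and 2.26 FPKM in ICH+P7C3-A20. The iron-binding protein gene Lcn2 measured 0.153, 0.122 and 0.400 FPKM in sham, 33.5, 36.8 and 31.6 FPKM in ICH and 6.73, 11.7 and 15.8 FPKM in ICH+P7C3-A20. For Cxcl10 and Lcn2 every ICH library was far above every sham library, and the treated libraries lay between. The interferon-induced gene Ifit1 had another pattern, at 2.74, 3.93 and 3.55 FPKM in sham, 3.49, 8.86 and 7.54 FPKM in ICH and 1.18, 1.82 and 1.58 FPKM in ICH+P7C3-A20. ICH 1 overlapped with sham, and the treated libraries were all below sham. Its call in ICH (log2 change 0.92 ± 0.30, edgeR adjusted p = 0.0470) was lost in 5 of 6 fits without 1 library (edgeR adjusted p 0.0560 to 0.208), and held without ICH 1. Against ICH the log2 changes were -3.12 for Acod1, -2.27 for Cxcl10, -2.07 for Ifit1, -1.53 for Lcn2, -1.2 for Cd86 and -0.95 for Il1a (edgeR adjusted p up to 0.0470). Tnf was lost without ICH 1 (edgeR adjusted p = 0.0536), Lcn2 in 5 fits without 1 library (0.0546 to 0.0748), Cd86 in the 3 fits without an ICH library (0.0576 to 0.0642), and Acod1 and Il1a in all 6 (0.0554 to 0.185).

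Of 9 tested endogenous ligands (of 10 listed), 6 rose in ICH (median log2 change 1.27) and 2 fell with P7C3-A20 (median -0.51). The matrix genes Fn1 and Tnc, whose proteins can act on Tlr4, had log2 changes of 3.07 ± 0.22 and 3.5 ± 0.29 in ICH and -1.28 ± 0.21 and -1.59 ± 0.27 with P7C3-A20 (edgeR adjusted p up to 1.75e-05 and 0.00828). Vcan, a matrix proteoglycan that acts on Tlr2, rose in ICH (log2 change 0.63 ± 0.13, edgeR adjusted p = 0.00588) and did not pass with P7C3-A20 (log2 change -0.35 ± 0.13, edgeR adjusted p = 0.127).

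**Figure D4:**
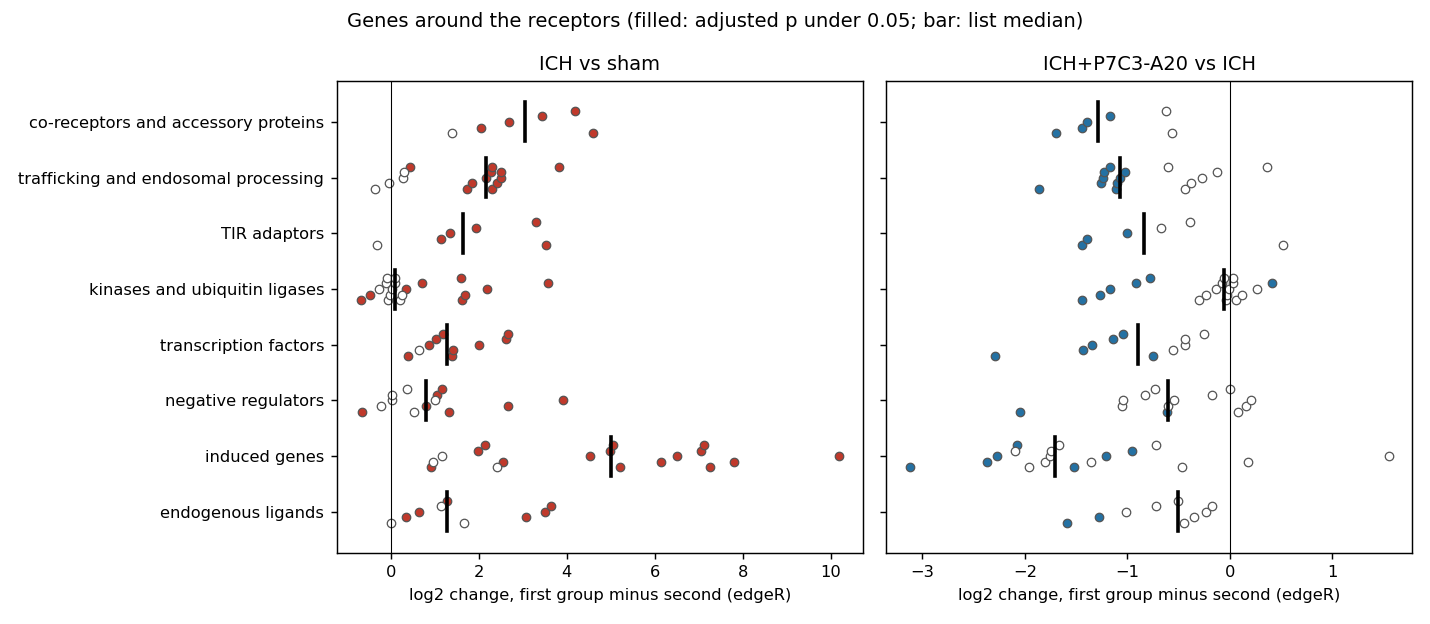
Log2 change (x axis, edgeR) of each tested pathway gene by list (y axis) for ICH against sham and for ICH+P7C3-A20 against ICH; filled points have an adjusted p under 0.05 and the black bar is the list median. List medians run from 0.10 (kinases and ubiquitin ligases) to 5.01 (induced genes) in ICH and from -1.71 to -0.05 for the same lists with P7C3-A20.

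As sums, markers of microglia, of monocytes and macrophages, of neutrophils and of astrocytes had the order of the receptor sum. Each was lowest in sham and highest in ICH, without overlap of the groups. Endothelial sums were also highest in ICH, with sham and ICH+P7C3-A20 overlapping. Dendritic cell, lymphocyte, oligodendrocyte and neuron sums overlapped between some groups, and neuron sums were lowest in ICH. All 9 homeostatic microglia markers rose in ICH and 5 fell with P7C3-A20, and their summed FPKM was 89.5 to 128 in sham, 424 to 498 in ICH and 163 to 275 in ICH+P7C3-A20. All 9 monocyte and macrophage markers rose in ICH and 8 fell with P7C3-A20, with sums of 14.8 to 15.9, 330 to 383 and 66.0 to 138 FPKM. Of 8 tested neutrophil markers 4 rose in ICH and 1 fell with P7C3-A20, with sums over 10 markers of 2.03 to 3.41, 12.5 to 20.7 and 6.37 to 11.2 FPKM. The 4 that rose were S100a9, Cxcr2, Mmp8 and Csf3r (edgeR adjusted p 0.0155, 0.00597, 3.4e-04 and 6.29e-05). The 1 that fell was Csf3r (edgeR adjusted p = 0.0344). Csf3r made up most of the neutrophil sum, at a mean of 1.915, 11.25 and 5.491 FPKM. Cxcr2 was at 0 in sham and held 13, 141 and 23 counts in ICH, and Ly6g was at 0 in sham and ICH. Dendritic cell markers (6) summed to 1.06 to 1.54, 1.98 to 2.17 and 1.3 to 2.01 FPKM, with Xcr1 at 0 in sham. Of 5 tested dendritic cell markers 1 rose in ICH (Cd209a) and 0 were called by edgeR with P7C3-A20 (1 at an unadjusted p under 0.05). Lymphocyte markers (9) summed to 10.4 to 17.2, 9.32 to 11.2 and 5.71 to 9.49 FPKM, with Cd3d at 0 in sham and ICH+P7C3-A20, Cd8a at 0 in sham and Ms4a1 at 0 in ICH+P7C3-A20. Cd4 made up most of the lymphocyte sum, at a mean of 13.7, 8.42 and 6.79 FPKM, and fell in ICH (log2 change -0.74, edgeR adjusted p = 0.0283). Of the 6 tested lymphocyte markers Cd79b (edgeR adjusted p = 0.0174) and Cd8a (0.0166) rose in ICH, and 0 were called by edgeR with P7C3-A20 (0 at an unadjusted p under 0.05). Astrocyte markers (6) summed to 207 to 237, 855 to 952 and 397 to 552 FPKM, and endothelial markers (6) to 16.3 to 26.9, 49.3 to 65.2 and 23.4 to 39.7 FPKM. Gfap carried most of the ICH astrocyte sum, at a mean of 23.9, 631 and 233 FPKM. Of the 6 astrocyte markers 5 rose in ICH, all but Slc1a2 (116 FPKM in sham, 97.6 FPKM in ICH). With P7C3-A20 Gfap, Aqp4 and Aldh1l1 fell, Slc1a2 rose (log2 change 0.68, edgeR adjusted p = 0.0228), and Slc1a3 (0.03) and Gja1 (-0.17) were not called. All 6 endothelial markers rose in ICH and 2 fell with P7C3-A20. Neuron markers (6), of which 6 fell in ICH and 1 rose with P7C3-A20 (Rbfox3), were at 470 to 499, 288 to 321 and 374 to 512 FPKM. Of 6 oligodendrocyte markers 1 rose in ICH and 1 fell with P7C3-A20, Cldn11 in both. Ccr2, Plac8, Ms4a7, Msr1, S100a9, Cxcr2, Mmp8, Cd209a, Cd79b and Cd8a passed the count filter only through the groups with haemorrhage, a limit on their calls in ICH. The part of the cell types named here in the receptor values was not tested.

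Set against the microglia markers, the receptor sum differed less between groups. Per 100 FPKM of microglia markers it was 4.07 to 5.33 FPKM in sham, 6.05 to 7.29 FPKM in ICH and 5.08 to 5.96 FPKM in ICH+P7C3-A20, a ratio that was chosen after the values were seen and is given without a test. Per 100 FPKM of monocyte and macrophage markers it was 27.1 to 34.7, 7.91 to 9.49 and 11.4 to 14.7 FPKM, the reverse order. Single receptors differed on the microglia scale: Tlr2 was 0.242 to 0.333 FPKM per 100 in sham, 1.43 to 1.82 in ICH and 0.732 to 1.16 in ICH+P7C3-A20. Tlr3 was 1.74 to 2.71 in sham, 0.964 to 1.23 in ICH and 1.19 to 1.80 in ICH+P7C3-A20. Relative to the microglia markers Tlr2 was thus highest and Tlr3 lowest in ICH, and Tlr3 overlapped between ICH and ICH+P7C3-A20. Tlr4 overlapped among all groups on this scale, at 0.129 to 0.258, 0.212 to 0.264 and 0.187 to 0.315. Per 100 FPKM of monocyte and macrophage markers Tlr2 overlapped among all groups, at 1.4 to 2.8 in sham, 1.9 to 2.3 in ICH and 1.8 to 2.6 in ICH+P7C3-A20. Tlr3 was again lowest in ICH there, at 1.36 to 1.45, against 13.9 to 16.9 in sham and 2.95 to 4.44 in ICH+P7C3-A20.

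**Figure D5:**
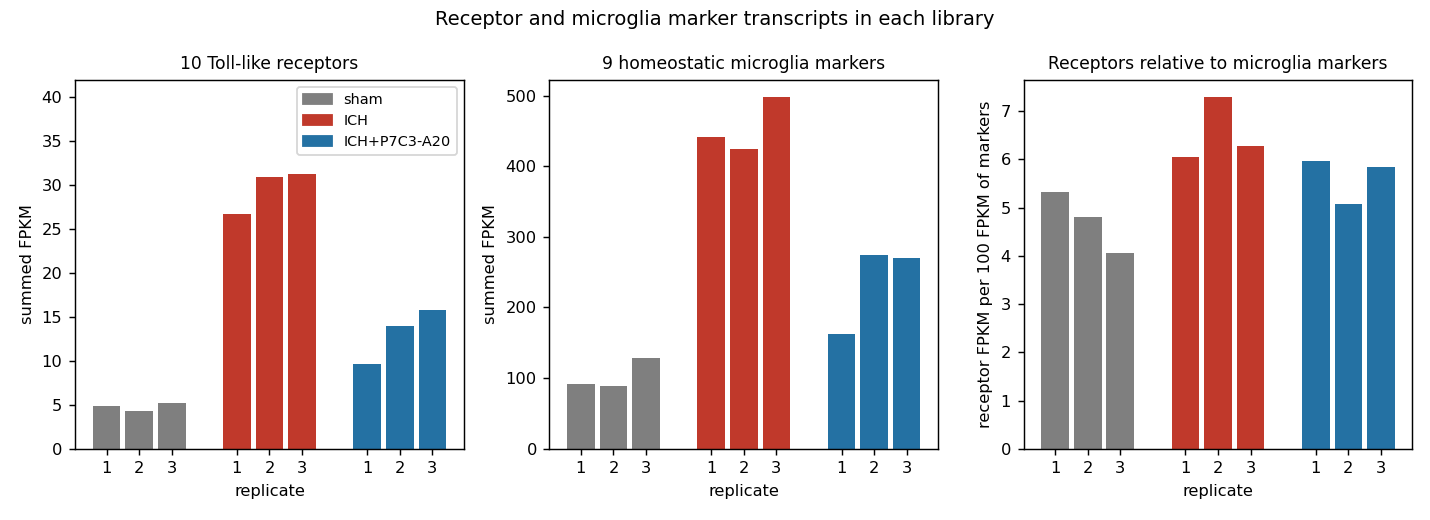
Summed FPKM of the 10 receptors (left), summed FPKM of 9 homeostatic microglia markers (middle) and receptor FPKM per 100 FPKM of these markers (right) in each library (bars, replicate number on the x axis, colour for group). The sums are lowest in sham and highest in ICH, while the ratio runs from 4.07 in sham 3 to 7.29 in ICH 2.

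The receptors were also compared by their profiles over the libraries. The distance between 2 profiles was the root mean square difference of their log2(CPM + 0.5) values, each centred on its mean over the 9 libraries. The 0.5 CPM added exceeds the sham means of Tlr5 (0.365 CPM) and Tlr8 (0.0999 CPM) and so compresses differences of faint genes. Tlr6 and Tlr8, for example, had a small distance with ICH log2 changes of 2.41 and 4.25. By this measure the closest pairs were Tlr3 with Tlr9 (0.229), Tlr6 with Tlr8 (0.242) and Tlr6 with Tlr9 (0.274), and the farthest was Tlr2 with Tlr5 (1.40). Tlr2 was closest to Tlr13 (0.352), and Tlr1 to Tlr7 (0.359). The partners Tlr1 and Tlr6 were 0.413 apart, and the X-linked neighbours Tlr7 and Tlr8 0.541. Among 13867 genes with a mean of at least 0.5 FPKM in a group, the profiles nearest to Tlr2 were those of Slc11a1, a phagosomal metal transporter (0.144), Ckap2 (0.144) and Bcl3, an NF-kappaB cofactor (0.159), against a median of 1.72 for all genes. Nearest to Tlr13 were Cebpd (0.184), Iqgap3 (0.189) and Bin2 (0.191), and nearest to Tlr7 were Vwf (0.127), Ggta1 (0.143) and C1ra (0.147). Nearest to Tlr3 were Ednra (0.0810), Pabpc1 (0.0943) and the microglial factor Sall1 (0.0977), against a median of 0.520. Nearest to Tlr1 were Plp2 (0.145), Plcg2 (0.161) and the endosomal protease Lgmn (0.164), and nearest to Tlr6 were Rasa4 (0.125), Mmp2 (0.130) and Raet1d (0.154). Nearest to Tlr4 were Rad51ap1 (0.131), Adamtsl3 (0.138) and Cnn2 (0.145), and nearest to Tlr9 were Shisa5 (0.120), Lpar6 (0.136) and Arid5a (0.143). Nearest to Tlr8 were Cmtm7 (0.201), Zc3h12a (0.212) and Naip5 (0.227), and nearest to Tlr5 were Map4k1 (0.257), Csf2ra (0.268) and Aim2 (0.270). All profiles share the same 9 libraries and their depth.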

How the data were processed

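Polyadenylated RNA from 9 mouse brains was sequenced as dUTP-stranded libraries, per the labels' protocols. The submitters' processing notes list cutadapt 1.9, HISAT2 2.0.4 and StringTie 1.3.4d. The sources used here do not give the genome build, the strand setting or the counting step. For each gene and library the authors deposited FPKM and a whole-number estimated count. Among low genes with 1 transcript, the estimated count was the FPKM rescaled and rounded up for 93.3% to 94.2% of values per library (tolerance 0.01).

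Columns were matched to samples by name. Differences were tested with edgeR 4.0.16 (R 4.3.3). The filterByExpr rule, with a count of 10 and a total of 15 as minimums, left 21900 genes. After TMM scaling, 3 group means were fitted to all 9 libraries by robust quasi-likelihood, with 6 residual degrees of freedom. A gene was called when its two-sided p, adjusted over all tested genes by Benjamini-Hochberg, was under 0.05. Errors of log2 changes are their size over the root of F. Shares were tested by exact permutation. The floor of 3 counts covers counting error only. Alternatives were RLE scaling, other filters, DESeq2 1.42.0, limma 3.58.1 on log2(FPKM + 1), log2(FPKM + 0.1) and quantile-normalized values, the 2 groups alone, a replicate block, each library left out, and sham 3 with ICH+P7C3-A20 1 left out, the last chosen after seeing the data.

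Named genes were the 10 receptors, from each pathway list the 3 smallest p in ICH against sham, all members called against ICH or lower in ICH, and the 3 nearest profiles of each receptor. The members and lists were chosen with earlier results of these data known. The listed gene Tasl was not matched by symbol and is not used here. Figures were drawn with matplotlib 3.10.9.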

Additional observations from a re-analysis of the deposited data

How the results depend on the processing

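In ICH against sham the 9 receptors stayed called under every alternative, and Tlr5 was added when only the 2 groups were fitted. In ICH+P7C3-A20 against ICH, leave-one-out fits called 1 to 5 receptors (6 with all libraries), 571 to 1954 genes of the whole table (1914) and 20 to 36 pathway genes (39). DESeq2 called 3532 genes in that comparison and limma on log2(FPKM + 0.1) called 1250. In ICH+P7C3-A20 against sham, 3 receptors were called with only the 2 groups, with limma on log2(FPKM + 1) and with quantile-normalized values. The counts of all genes (1165) and of pathway genes (35) were 435 and 19 with only the 2 groups, 331 and 17 with limma on log2(FPKM + 1), 527 and 21 with log2(FPKM + 0.1), and 473 and 22 with quantile-normalized values. DESeq2 called 2109 genes there, and the fit without sham 3 and ICH+P7C3-A20 1 together called 2222. Leave-one-out fits called 538 to 1434 genes and 23 to 36 pathway genes. The fits of 2 groups estimate the spread from fewer libraries; for the other settings the cause was not tested.

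With 1 library left out, the Tlr5 log2 change against sham in ICH+P7C3-A20 ran from -0.181 (without ICH+P7C3-A20 3) to 1.22. Share differences, in percentage points, reversed sign for Tlr6 in ICH against sham (range -0.904 to 0.0947, the latter without sham 2). In ICH+P7C3-A20 against ICH they reversed for Tlr4 (-0.102 to 0.938) and Tlr7 (-1.65 to 0.310), the negative and the positive end without ICH+P7C3-A20 1, and for Tlr5 without ICH+P7C3-A20 1 (-0.0373), ICH+P7C3-A20 3 (-0.176), ICH 1 (-0.0308) and ICH 3 (-0.0344), with 0.350 at the other end. None of these was called. Whether the replicate numbers pair the mice is not known. Deviations from the group mean correlated at -0.231 to 0.205 for same-numbered libraries of different groups. For differently numbered libraries they correlated at -0.144 to 0.350. With 3 libraries in a group, these values cannot decide the question. With the replicate block 9, 5 and 6 receptors were called in the 3 comparisons, and Tlr9 was the receptor lost. Tlr5 and Tlr8 rest on few counts, and their intervals are the widest of the 10 receptors.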
